A study of Mus musculus with 9 samples.

Results

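The genes described here are 10 transcription factors that set squamous, basal or lung epithelial identity: *Trp63*, *Sox2*, *Klf4*, *Klf5*, *Pitx1*, *Tfap2a*, *Tfap2c*, *Grhl2*, *Grhl3* and *Nkx2-1*. They were chosen by symbol, and all 10 were among the 19481 genes of the deposited count table. Their transcripts were measured by bulk RNA sequencing of 9 tumors grown from KLN205 cells, a murine line of squamous lung carcinoma, under the skin of immunocompetent DBA/2 females aged 6 to 8 weeks at injection. Every group, the control included, carried a doxycycline-inducible lentiviral SMARTvector shRNA and received doxycycline from a mean tumor volume of 100 mm3, and tumors were resected at day 50. The 3 control tumors carried a control shRNA, and the sh2 and sh3 tumors, 3 of each, carried independent shRNAs against *Tmprss11b*, the transmembrane serine protease that the study examined. The paper calls these constructs shRNA1 and shRNA2. The cells were selected with puromycin after infection, and neither the labels nor the methods say whether a clone was taken. The replicates are labelled as biological, and each bulk sample mixes carcinoma and host RNA of the same species, so fewer cells of a type and less RNA per cell cannot be told apart.

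In stratified epithelia, p63 (the product of *Trp63*) is the master regulator of basal cells and switches on basal keratins such as *Krt5* and *Krt14*. SOX2 acts with p63 in squamous lung carcinoma, where both are often amplified, while KLF4 and KLF5 act in differentiating and proliferating epithelium, respectively. The AP-2 proteins and the grainyhead-like proteins hold epithelial and epidermal programs, PITX1 is an identity factor of oral and hindlimb tissue that also occurs in squamous carcinoma, and NKX2-1 is the lineage factor of lung and thyroid whose absence is typical of squamous lung tumors. The study asked what loss of *Tmprss11b* does to such tumors. It also reported that forced expression of KLF4 in human bronchial epithelial cells raised transcripts of the human gene. The question put to these 10 genes was whether their transcripts differed between control and knockdown tumors.

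The sequenced libraries gave gene counts that totalled 20653219 to 24047784. Levels are given as CPM, a count scaled by the total of its library and by edgeR's TMM factor. A count of 3 or fewer was taken as at or under the floor, and 3 counts corresponded to 0.125 to 0.145 CPM before the TMM factor. *Tmprss11b*, listed under its older symbol *Tmprss11bnl*, had 18, 51 and 42 counts in the control tumors, 7, 2 and 5 in the sh2 tumors and 10, 4 and 5 in the sh3 tumors. No shRNA tumor reached the lowest control level. Some tumors stood apart. In control 1, 10 genes of cornifying skin epidermis summed to 170.2 CPM, against 5.17 to 7.82 CPM in the other 8 tumors. In sh2 2, *Cdx2*, an intestinal lineage factor, was at 94.4 CPM, against 4.56 to 9.82 CPM elsewhere. The tumor sh3 1 had the lowest summed level of 12 squamous carcinoma markers, 196 CPM, against 424 to 1250 CPM in the others. Genes of other tissues differed too. The 5 skeletal muscle genes summed to 2649 CPM in control 3, against 3.38 to 874 CPM elsewhere. The 5 macrophage genes summed to 4653 CPM in sh3 2, against 1165 to 2533 CPM elsewhere. The 7 fibroblast genes summed to 3116 to 5456 CPM in the controls, 2423 to 4038 CPM in the sh2 tumors and 1315 to 2310.5 CPM in the sh3 tumors. The part of these tissues in the levels of the factors was not tested.

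The labelled cell type was checked against those 12 markers and against 6 genes of simple or general epithelium. *Trp63*, a factor described here, is itself among the 12. The keratin genes *Krt14* and *Krt6a*, at 12.3 to 390 and 46.4 to 292 CPM, and the desmosomal genes *Pkp1* and *Perp*, at 47.9 to 221 and 80.6 to 217 CPM, were present in every tumor. *Krt5*, the usual basal partner of *Krt14*, was at 87.4 CPM in control 1, at 1.88 and 5.02 CPM in sh2 3 and sh2 2, and under 1 CPM in the other 6 tumors. *Krt6b* and the desmosomal cadherin gene *Dsc3* were at 23.1 and 9.63 CPM in control 1 and at most at 1.45 and 0.82 CPM in the other 8 tumors. The keratin genes *Krt16* and *Krt17* were at 1.34 to 46.4 and 1.16 to 26.5 CPM, and *Trim29* and *Dsg3* reached at most 11.8 and 5.00 CPM. Of the 11 markers tested, 9 were highest in control 1, *Trp63* among them. *Krt13*, a keratin of hillock cells that is not in the list, had between 0 and 5 counts per tumor. The simple epithelial keratins *Krt8* and *Krt18* were at 697 to 1788 CPM and 644 to 1599 CPM. Outside control 1 the squamous markers were thus present in part, with *Krt5*, *Krt6b*, *Dsc3* and *Krt13* low, beside higher levels of simple keratins, and none of these values separates carcinoma cells from host epithelium.

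Levels of different genes were compared per transcript length, in TPM, over the control tumors. *Klf5* came first with 49.9 ± 2.45 TPM (SD, n = 3), followed by *Klf4* with 44.5 ± 11.7, *Grhl2* with 36.5 ± 1.03 and *Pitx1* with 34.8 ± 9.13 TPM. *Sox2* at 23.8 ± 1.05 TPM and *Tfap2a* at 20.1 ± 3.01 TPM came next. Lower levels were those of *Grhl3* at 2.70 ± 0.708 TPM and *Trp63* at 1.47 ± 1.08 TPM. *Tfap2c* at 0.227 ± 0.365 TPM and *Nkx2-1* at 0.0349 ± 0.0347 TPM came last. In this order the ranges of neighbours were separate at 2 steps, from *Pitx1* to *Sox2* and from *Tfap2a* to *Grhl3*, while every other pair of neighbours overlapped. *Klf5* exceeded 77.9% of the genes in the table and *Trp63* 30.5%, so the basal master regulator ranked among the low transcripts and the Krüppel-like factors among the high ones. Within single tumors of all groups, *Klf5* held rank 1 or 2, *Trp63* and *Grhl3* held ranks 7 and 8 and *Tfap2c* and *Nkx2-1* ranks 9 and 10, whereas *Pitx1* moved between ranks 1 and 5.

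**Figure D1:**
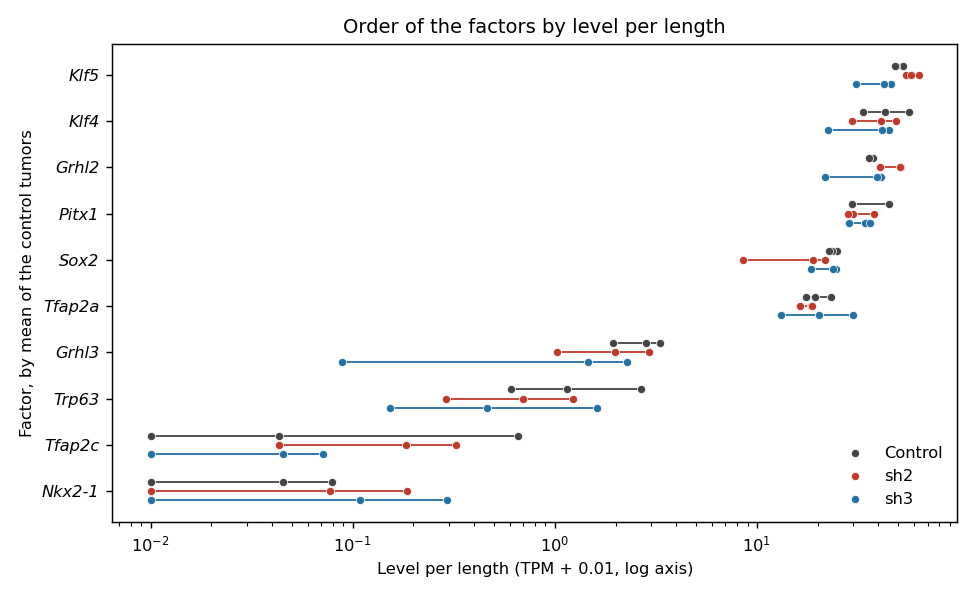
Level per transcript length (TPM + 0.01, log axis) of the 10 factors in each tumor, ordered by the mean of the control tumors, with a line from the lowest to the highest tumor of each group (grey control, red sh2, blue sh3; 3 tumors each). The upper 6 factors lie well above *Grhl3* and *Trp63*, and points at the left edge are tumors with 0 counts.

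*Trp63* lies on chromosome 16 (25683763 to 25892088, GRCm38.p6). It was at 6.94, 1.53 and 2.78 CPM in control tumors 1 to 3, at 3.08, 0.773 and 1.79 CPM in the sh2 tumors and at 0.370, 1.47 and 4.66 CPM in the sh3 tumors. These levels rest on 163, 37 and 68 counts, on 73, 16 and 43 counts and on 8, 29 and 109 counts. The 3 groups overlapped, with the highest level in control 1 and the lowest in sh3 1. The highest tumor was 18.8 times the lowest, and the range of *Trp63* on the log2 scale was wider than that of 97% of the genes tested.

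Against the control, *Trp63* had a log2 fold change of −0.99 with sh2 (standard error 0.88, 95% interval −2.99 to 1.01) and −0.78 with sh3 (standard error 0.88, 95% interval −2.77 to 1.20). The FDR over the 14725 tested genes was 0.999 and 0.885 (quasi-likelihood test of edgeR). Control 1 set most of the size of both values. Without that tumor the log2 fold change was −0.19 with sh2 and 0.01 with sh3, and without control 1 and sh2 2 together it was 0.18 with sh2 and 0.01 with sh3. Without sh3 3 it was −2.05 with sh3, and without sh3 1 it was −0.28. The interval of each comparison therefore held lower, equal and higher levels in the shRNA tumors, and a difference was not detectable at these counts and this spread.

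*Sox2*, a single-exon gene, lies on chromosome 3 (34649995 to 34652461) inside the non-coding gene *Sox2ot*, which had 9 to 58 counts per tumor. These counts do not show how many *Sox2ot* reads, if any, were counted as *Sox2*. The level of *Sox2* was 26.2, 24.7 and 22.6 CPM in the controls, 19.4, 9.57 and 23.1 CPM in the sh2 tumors and 19.4, 32.9 and 28.0 CPM in the sh3 tumors. The control tumors were close together, sh2 2 was the lowest of all and sh3 2 the highest, and each pair of groups overlapped. *Sox2* had a log2 fold change of −0.50 with sh2 (standard error 0.31, FDR = 0.999, edgeR) and of 0.13 with sh3 (standard error 0.31, FDR = 0.958, edgeR). The constructs differed from each other by 0.62 (standard error 0.31, 95% interval −0.08 to 1.33, unadjusted p = 0.0767 and FDR = 0.675 in edgeR). Without sh2 2, the tumor with high *Cdx2*, the difference between constructs was 0.31 and that between sh2 and control −0.20.

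*Klf4* lies on chromosome 4 (55527137 to 55532475). It was at 56.5, 73.4 and 41.1 CPM in the controls, at 52.4, 67.9 and 38.9 CPM in the sh2 tumors and at 58.6, 37.1 and 60.6 CPM in the sh3 tumors. Each group spanned nearly the same range. In log2 fold change, *Klf4* differed by −0.10 with sh2 (standard error 0.28, 95% interval −0.74 to 0.54) and −0.13 with sh3 (standard error 0.28, 95% interval −0.77 to 0.51). The FDR in edgeR was 0.999 and 0.947. Thus *Klf4* showed no detectable difference, while changes of up to about 0.77 on the log2 scale in the lower direction remain inside the intervals.

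*Klf5*, on chromosome 14 (99298691 to 99313412), was at 39.0, 35.8 and 33.6 CPM in the controls, at 39.1, 45.5 and 47.5 CPM in the sh2 tumors and at 33.8, 28.9 and 34.9 CPM in the sh3 tumors. Every sh2 tumor lay above every control tumor, although the closest pair, sh2 1 and control 1, had 928 and 915 counts, and every sh2 tumor lay above every sh3 tumor. The sh3 and control tumors overlapped. The log2 fold change was 0.28 with sh2 (standard error 0.13, unadjusted p = 0.0640, FDR = 0.999, edgeR) and −0.15 with sh3 (standard error 0.13, FDR = 0.849, edgeR). The sh3 tumors lay below the sh2 tumors, and the fitted log2 difference was −0.44 (standard error 0.14, 95% interval −0.74 to −0.13, unadjusted p = 0.0103, FDR = 0.673, edgeR). Over the fits that omit a single tumor, this difference stayed between −0.52 and −0.36, with unadjusted p between 0.0096 and 0.0388 in edgeR. The exact permutation test, two-sided, gave p = 0.1, the smallest that 3 tumors against 3 allow.

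*Pitx1*, on chromosome 13 (55825044 to 55836190), was at 47.6, 30.9 and 29.2 CPM in the controls, at 30.4, 31.5 and 40.2 CPM in the sh2 tumors and at 29.8, 45.6 and 42.2 CPM in the sh3 tumors. In each group at least 1 tumor was near 30 CPM and at least 1 was above 40 CPM. Fitted log2 fold changes were −0.08 with sh2 and 0.13 with sh3 (standard error 0.24 for both, FDR = 0.999 and 0.936, edgeR). The total spread was narrow, with the highest tumor 1.63 times the lowest.

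*Tfap2a*, which encodes AP-2α and lies on chromosome 13 (40713802 to 40738238), was at 32.8, 27.0 and 23.1 CPM in the controls, at 25.3, 24.2 and 26.4 CPM in the sh2 tumors and at 41.6, 23.2 and 31.8 CPM in the sh3 tumors. The sh2 tumors were the most alike, and the highest level, in sh3 1, came from the tumor with the fewest squamous transcripts. *Tfap2a* had log2 fold changes of −0.13 with sh2 and 0.22 with sh3 (standard error 0.22 for both, FDR = 0.999 and 0.869, edgeR). *Tfap2c*, which encodes AP-2γ (chromosome 2, 172545678 to 172558622), had 20, 0 and 1 counts in the control tumors, 1, 5 and 10 in the sh2 tumors and 1, 2 and 0 in the sh3 tumors. The highest count, 20, came from control 1, the tumor with cornifying skin transcripts. It did not pass the filter on low counts and was not tested in edgeR.

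*Grhl2*, on chromosome 15 (37232821 to 37363569), encodes a factor that maintains epithelial junction genes such as *Cdh1*. It was at 76.5, 79.3 and 71.6 CPM in the controls, at 84.2, 117 and 110 CPM in the sh2 tumors and at 86.7, 58.3 and 92.6 CPM in the sh3 tumors. Every sh2 tumor was above every control tumor, whereas the sh3 tumors lay on both sides of the control range. The log2 fold change with sh2 was 0.45 (standard error 0.19, 95% interval 0.02 to 0.89, unadjusted p = 0.0434, FDR = 0.999, edgeR), a level 1.37 times that of the control. With sh3 it was 0.06 (standard error 0.19, 95% interval −0.37 to 0.50, FDR = 0.965, edgeR). The exact permutation test of sh2 against control, two-sided, gave p = 0.1, the smallest possible. Without sh2 2 the log2 fold change was 0.36 (unadjusted p = 0.140, edgeR), and it kept its direction with every tumor left out, between 0.36 and 0.58.

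*Grhl3*, on chromosome 4 (135541887 to 135573632), encodes the grainyhead-like factor of epidermal barrier formation. It was at 3.96, 3.35 and 2.17 CPM in the controls, at 1.18, 2.51 and 3.50 CPM in the sh2 tumors and at 0.0925, 2.18 and 2.99 CPM in the sh3 tumors. The lowest level, in sh3 1, was 2 counts, while every other tumor had between 28 and 93 counts, and the groups overlapped. The log2 fold change was −0.40 with sh2 (standard error 0.84, FDR = 0.999, edgeR) and −0.84 with sh3 (standard error 0.85, FDR = 0.872, edgeR). Without sh3 1 the value for sh3 was −0.28. The range of *Grhl3* over the tumors was wider than that of 97.9% of the genes tested.

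*Nkx2-1*, on chromosome 12 (56531935 to 56536908), had 2, 0 and 1 counts in the control tumors, 5, 0 and 2 in the sh2 tumors and 0, 3 and 9 in the sh3 tumors. It was therefore at or under the 3-count floor in 7 of 9 tumors and did not pass the filter. Of 14 lung genes known to act downstream of it, 12 were in the table. The surfactant genes *Sftpb* and *Sftpc* were at most at 0.04 and 0.08 CPM, whereas *Abca3*, a lipid transporter that is also used outside the lung, was at 85.0 to 140 CPM. The surfactant gene *Sftpd* was at 0.97 to 50.1 CPM and *Aqp5*, a water channel gene of alveolar and glandular epithelium, at 2.64 to 69.2 CPM. *Hopx* and *Napsa* were lower, at 1.64 to 9.15 and 1.82 to 4.88 CPM. In sum the 12 genes were at 117 to 202 CPM, and 7 of them passed the filter on low counts. The lung factor, *Sftpb* and *Sftpc* were thus at or near 0, whereas other genes of the list, a surfactant gene among them, were not.

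Of the 10 factors, 8 passed the filter on low counts and were tested. None passed an FDR of 0.05 in any comparison, and the same was true of all 14725 genes, of which 0.0% passed in each (edgeR). No factor passed with DESeq2's Wald test or with edgeR's likelihood ratio test either. At an unadjusted p under 0.05 in edgeR, 1 of 8 passed with sh2 against control (*Grhl2*), against 3.52% of all genes, and 0 of 8 passed with sh3 against control, against 6.63% of all genes. In the mean of both shRNAs against control 0 of 8 passed, against 4.09%, and in sh3 against sh2 1 of 8 passed (*Klf5*), against 7.18%. At these background shares, 1 member in 8 is no result about the list.

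Groups did not overlap for 2 of 8 factors with sh2, both higher than control, a direction in which 5.56% of all genes did so. They did not overlap for 0 of 8 with sh3, where 12.2% of all genes were separate in either direction, and for 0 of 8 in the mean of both shRNAs, where 2.17% were. In sh3 against sh2 1 of 8 was separate and lower, as were 4.62% of all genes. By sign, 6 factors were lower and 2 higher with sh2, and 4 were lower and 4 higher with sh3, while 48.2% and 45.1% of all genes were lower. The median log2 fold change of the 8 was −0.12 with sh2 and −0.03 with sh3, beside 0.01 and 0.03 for all genes tested. Both comparisons share the 3 control tumors.

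**Figure D2:**
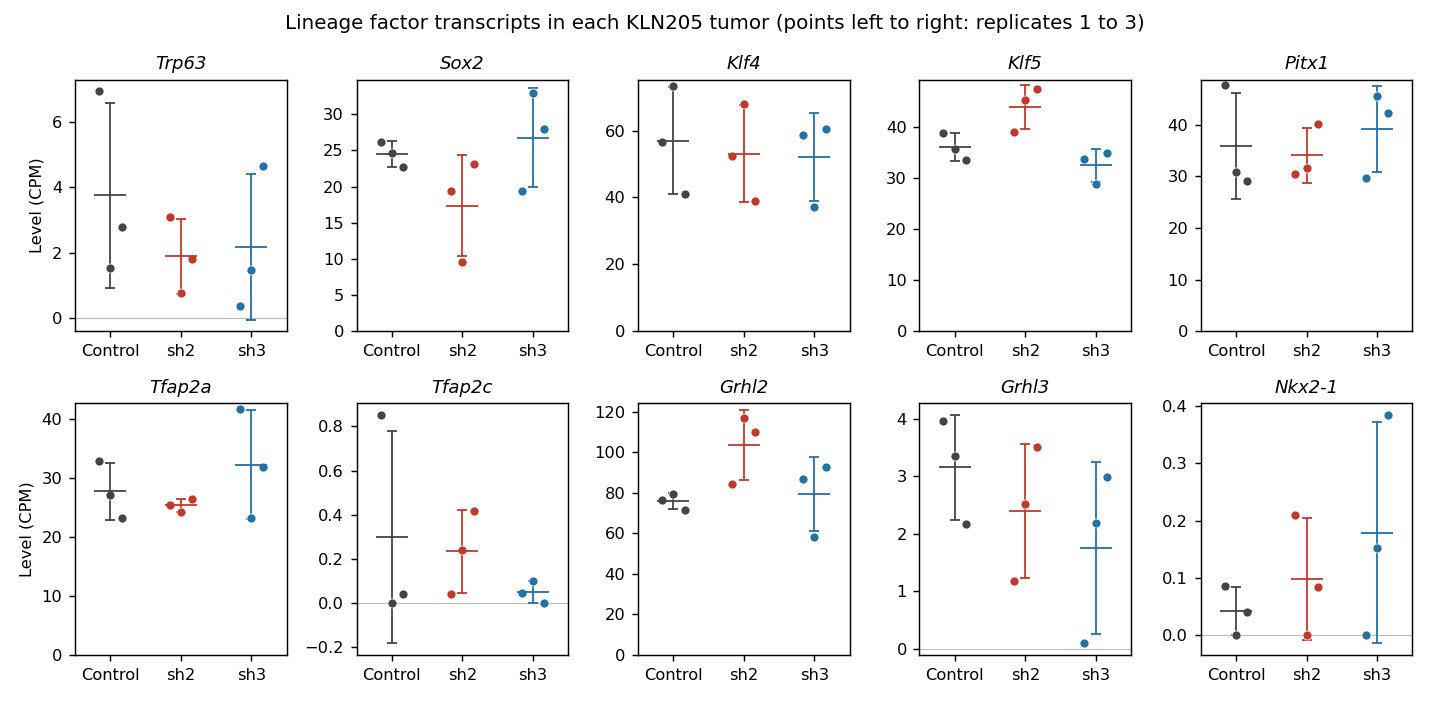
Level (CPM) of each of the 10 factors in the 9 tumors, with the mean and SD of each group (horizontal bar and whiskers, n = 3; replicates 1 to 3 from left to right). Groups overlap for every factor except *Klf5* and *Grhl2*, where the 3 sh2 tumors lie above the 3 control tumors, and *Klf5* also above the 3 sh3 tumors.

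The precision differed greatly between factors. *Klf5* had the narrowest interval in the mean of both shRNAs against control, −0.20 to 0.33 on the log2 scale, followed by *Grhl2* (−0.12 to 0.64), *Tfap2a* (−0.38 to 0.47), *Pitx1* (−0.44 to 0.49), *Klf4* (−0.67 to 0.43) and *Sox2* (−0.79 to 0.42). For these 6 factors a difference as large as that of *Tmprss11b*, −2.63 with an interval of −3.68 to −1.58 in the same comparison, lies outside the interval. The intervals of *Trp63* (−2.56 to 0.78) and *Grhl3* (−2.24 to 1.00) were wide enough to overlap that of *Tmprss11b*.

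**Figure D3:**
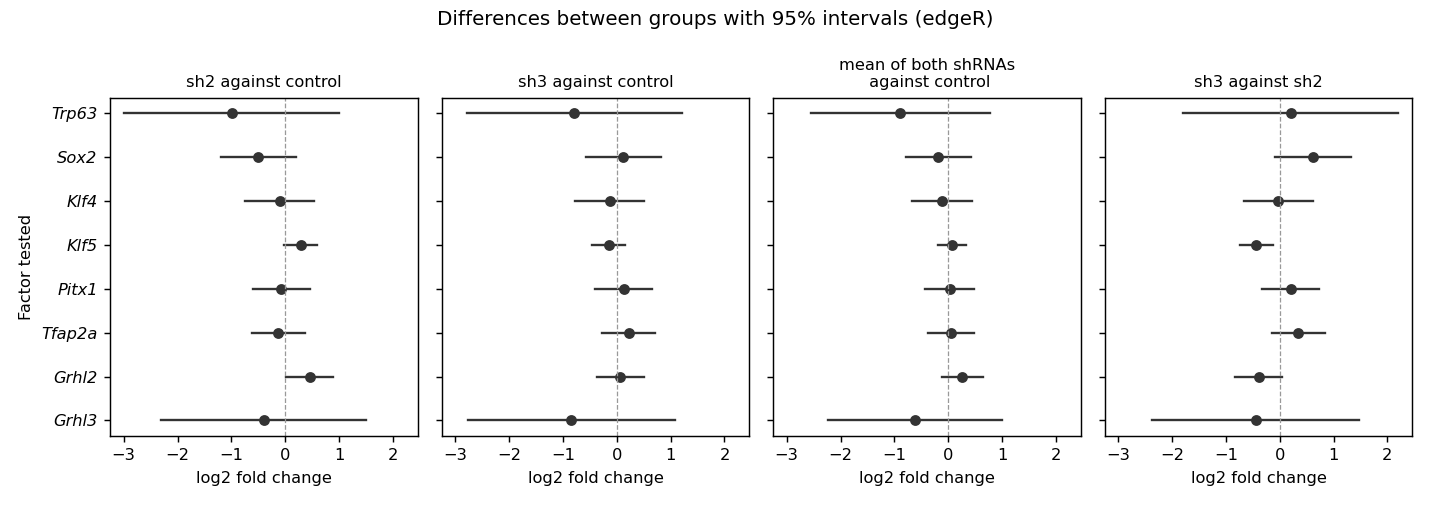
Log2 fold change of the 8 factors tested (points) with 95% intervals (lines) in the 4 comparisons, from edgeR's quasi-likelihood fit to all 9 tumors. The intervals of *Trp63* and *Grhl3* are the widest, and the 2 intervals that leave out 0 are *Grhl2* in sh2 against control and *Klf5* in sh3 against sh2.

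Several factors varied more between tumors than between groups, and this variation was compared with that of partner genes. In 8 relations over all 9 tumors, Pearson and Spearman coefficients were computed on log2 CPM with exact permutation tests over 362880 arrangements, two-sided, and adjusted over the 8 relations. *Grhl3* varied with *Tgm1*, the transglutaminase of the cornified envelope and a known grainyhead target (r = 0.942, exact permutation p = 0.00308, adjusted 0.0103; rho = 0.85, p = 0.00607, adjusted 0.0331). *Tgm1* was at 96.6, 85.2 and 44.7 CPM in the controls, at 49.2, 69.9 and 93.7 CPM in the sh2 tumors and at 7.58, 37.1 and 46.4 CPM in the sh3 tumors, so that sh3 1 was lowest for both genes. Without sh3 1, r was 0.671 (exact permutation p = 0.0546, adjusted 0.146), and without sh2 1 and sh3 1, the farthest from the median of *Grhl3*, r was 0.847 (exact permutation p = 0.0323, adjusted 0.171). With the group means removed, r was 0.979, sh3 1 included. No p is given for it, since values centred within groups cannot be exchanged freely between tumors.

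*Grhl2* varied with *Cdh1*, the gene of E-cadherin (r = 0.851, exact permutation p = 0.00265, adjusted 0.0103; rho = 0.833, p = 0.00827, adjusted 0.0331). *Cdh1* was at 263 to 302 CPM in the controls, at 301, 682 and 364 CPM in the sh2 tumors and at 375, 235 and 369 CPM in the sh3 tumors. The tumor sh2 2 was highest and sh3 2 lowest for both genes. Without these, which are also the farthest from the median of *Grhl2*, r was 0.729 (exact permutation p = 0.0558, adjusted 0.171). With any single tumor left out r stayed between 0.826 and 0.918, and with the group means removed it was 0.788.

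*Trp63* varied with *Krt14*, its basal keratin target (r = 0.849, exact permutation p = 0.00388, adjusted 0.0103; rho = 0.70, p = 0.0432, adjusted 0.0865). *Krt14* was at 390, 167 and 71.7 CPM in the controls, at 93.5, 59.9 and 107.5 CPM in the sh2 tumors and at 12.3, 120 and 184 CPM in the sh3 tumors. The relation rested in large part on control 1 and sh3 1 together: without both, r was 0.450 (exact permutation p = 0.315). Without control 1 alone r was 0.783, and without sh3 1 alone 0.711 (exact permutation p = 0.0219 and 0.0469, adjusted 0.0583 and 0.146). With the group means removed, r was 0.816. With *Krt5* instead, *Trp63* gave r = 0.410 (exact permutation p = 0.276), which turned to −0.114 without control 1 and to −0.723 without control 1 and sh3 1.

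The other relations did not pass. *Trp63* with *Sox2* gave r = 0.482 (exact permutation p = 0.193), *Sox2* with *Pitx1* r = 0.565 (exact permutation p = 0.0845) and *Trp63* with *Klf5* r = 0.0151 (exact permutation p = 0.970). *Klf4* with *Tmprss11b* gave r = 0.144 (exact permutation p = 0.698), and without its 2 farthest tumors r = −0.244. The tumor with the lowest *Tmprss11b* level, sh2 2, had the second highest *Klf4* level of all, and within the control tumors the order of the genes differed. The levels of *Tmprss11b* are set partly by the shRNAs, so this relation is not one between an untouched target and its regulator.

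**Figure D4:**
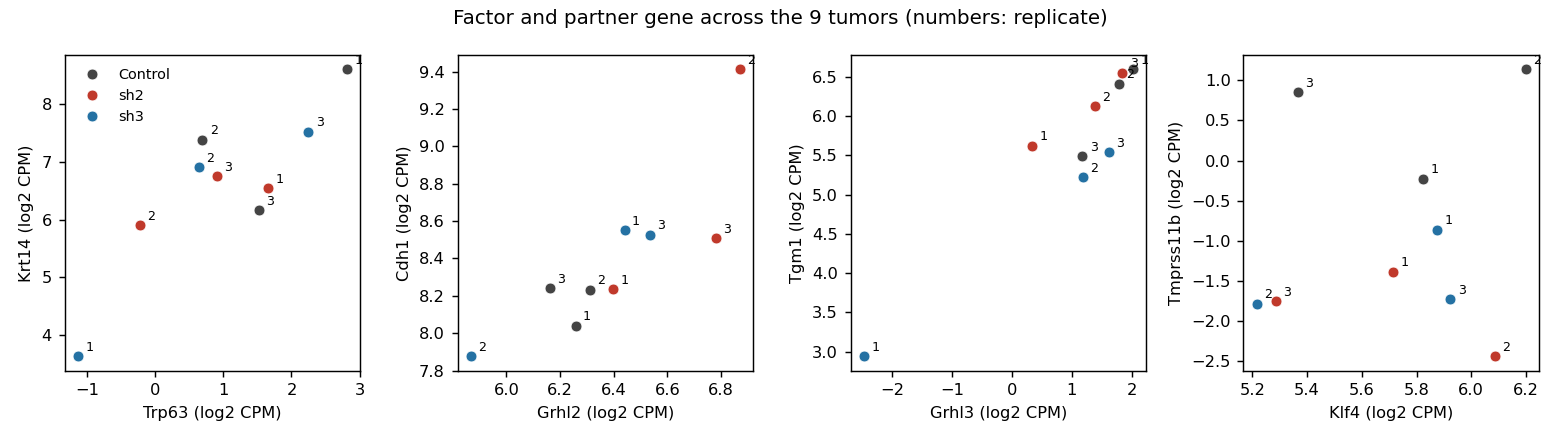
Levels (log2 CPM, prior count 2) of a factor on the x axis and a partner gene on the y axis in the 9 tumors (grey control, red sh2, blue sh3; numbers are replicates). *Krt14* with *Trp63*, *Cdh1* with *Grhl2* and *Tgm1* with *Grhl3* rise together, with sh3 1 alone at the lower left of the *Krt14* and *Tgm1* panels, whereas *Tmprss11b* shows no order with *Klf4*.

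Among the 8 factors themselves, the closest pair was *Klf5* and *Grhl2* (Pearson r = 0.866 over 9 tumors, a description with no test), followed by *Trp63* and *Grhl3* (r = 0.654). *Sox2* ran opposite to *Grhl2* (r = −0.695) and to *Klf5* (r = −0.607). Points shared between these pairs include sh2 2, with the lowest *Sox2* and the highest *Grhl2*, and sh3 2, with the highest *Sox2* and the lowest *Klf4*, *Klf5* and *Grhl2*. Without sh2 2, r was −0.492 for *Sox2* with *Grhl2* and −0.430 for *Sox2* with *Klf5*, and without sh2 2 and sh3 2 it was 0.000413 and 0.0111. *Klf5* with *Grhl2* gave r = 0.820 without sh2 2 and 0.680 without both. *Trp63* with *Grhl3* gave r = 0.134 without sh3 1.

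Among 13605 tested genes whose mean reached 1 CPM, the genes most like each factor across the tumors were named by Pearson's r, without a test. For *Trp63* these were *Bmp4*, a signalling ligand (r = 0.960), *Pigh* (0.955) and *Ephb6* (0.949). For *Sox2* they were *Cgrrf1* (0.983), *Lfng*, a Notch-modifying glycosyltransferase (0.974), and *Fez2* (0.970). *Klf4* was most like *Emp1*, a membrane protein of epithelia (0.952), *Ltv1* (0.923) and *Cep85* (0.921), and *Klf5* most like *Anapc2*, a subunit of the anaphase-promoting complex (0.987), *Zbtb42* (0.957) and *Tmem43* (0.950). With 9 points and this many genes, high coefficients occur for every factor, and the 8 closest genes ran from 0.945 for *Rhod* with *Pitx1* to 0.987 for *Anapc2* with *Klf5*. *Tfap2a* was closest to *Arhgdia* (0.952), *Grhl2* to *Sox13*, a SOX family factor (0.962), and *Grhl3* to *Hspa2* (0.979).

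**Figure D5:**
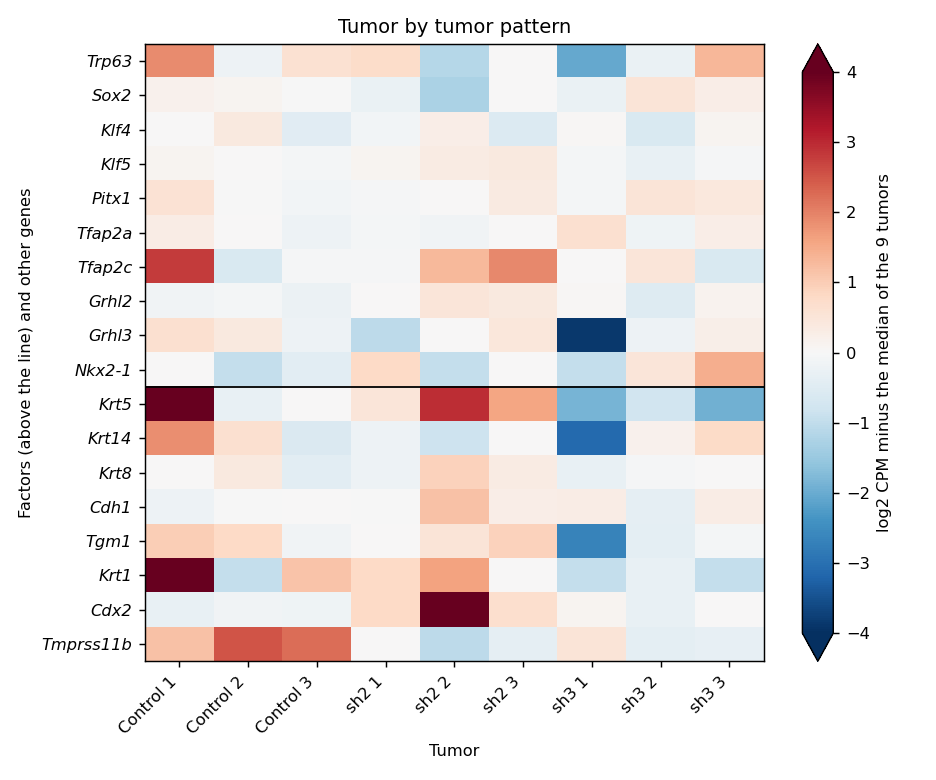
Log2 CPM (prior count 2) of the 10 factors (above the line) and of 8 other genes in each tumor, minus the median of that gene over the 9 tumors, from blue (lower) to red (higher), with colours ending at 4 either way. Control 1 is high for *Trp63*, *Tfap2c*, *Krt5*, *Krt14* and *Krt1*, sh2 2 is high for *Cdx2*, and sh3 1 is low for *Trp63*, *Grhl3*, *Krt14* and *Tgm1*.

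Further transcription factors of the same families were read from a list of 33, of which 31 were in the table and 27 were tested. None passed an FDR of 0.05 in any comparison (edgeR). At an unadjusted p under 0.05, 3 were higher and 0 lower with sh2, 0 were higher and 2 lower with sh3, and 0 were higher and 4 lower in sh3 against sh2, to be read against the 3.52%, 6.63% and 7.18% of all genes past that p. Without sh2 2, 0 were higher and 0 lower with sh2, against 1.09% of all genes. The median log2 fold change of the 27 was 0.07 with sh2 and −0.05 with sh3. *Grhl1*, the remaining grainyhead-like gene, was at 17.5 to 30.2 CPM in the controls, at 15.3 to 37.5 CPM in the sh2 tumors and at 3.79, 14.6 and 12.9 CPM in the sh3 tumors. As with *Grhl3*, sh3 1 was lowest. *Ehf*, an ETS factor of stratified epithelia, was lowest in the same tumor at 15.95 CPM, against 30.4 to 128 CPM elsewhere. *Sox9*, a progenitor factor, was highest there at 117 CPM, against 54.2 to 82.0 CPM elsewhere. *Elf3*, an ETS factor of simple epithelia, was at 407 and 304 CPM in sh2 2 and sh2 3, against 50.1 to 117 CPM in the other 7 tumors.

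Among 15 endoderm factors outside the squamous lineage, 12 were in the table and 6 were tested, with 3 higher and 0 lower with sh2 at an unadjusted p under 0.05, which 3.52% of all genes passed, and none past an FDR of 0.05 (edgeR). The 3 were *Cdx2*, *Foxa1* and *Gata4*. Without sh2 2, *Cdx2* (log2 fold change 0.95) and *Gata4* (0.57) passed that p and *Foxa1* (0.44) did not, against 1.09% of all genes. *Gata4*, a foregut and heart factor, was at 10.2 to 12.1 CPM in the controls, at 15.5, 26.1 and 18.2 CPM in the sh2 tumors and at 11.6 to 14.0 CPM in the sh3 tumors. *Foxa1*, the pioneer factor of endodermal epithelium, was at 50.5 to 58.5 CPM in the controls, at 61.3, 92.5 and 85.9 CPM in the sh2 tumors and at 94.6, 58.9 and 57.7 CPM in the sh3 tumors. For *Cdx2*, *Foxa1* and *Gata4* every sh2 tumor was above every control tumor, as was the case for 5.56% of all genes tested. The highest level of *Gata4* was again in sh2 2, the tumor with the high *Cdx2*. *Isx*, an intestinal homeobox gene that was not tested, had 406 counts in sh2 2 and at most 17 in any other tumor. Simple epithelial genes moved in the same tumors, summing to 9036 CPM in sh2 2 and 7324 CPM in sh2 3, against 3978 to 5756 CPM in the other 7, and the part of this in the level of *Grhl2* was not tested.

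The genes known to lie under these factors were counted by list. Of 21 basal and p63-bound genes, 20 were tested, and none passed an FDR of 0.05 (edgeR). Their median log2 fold change was −0.33 with sh2 and −0.31 with sh3, with 13 and 12 lower, while 48.2% and 45.1% of all genes were lower. At an unadjusted p under 0.05, 0 were higher and 3 lower in the mean of both shRNAs, against 4.09% of all genes: *Col17a1*, *Krt5* and *Krt15*, genes of basal adhesion and the basal cytoskeleton. Each had 1 tumor far above the rest, control 1, with 14.4 CPM for *Col17a1*, 87.4 CPM for *Krt5* and 23.0 CPM for *Krt15*, against at most 0.51, 5.02 and 3.06 CPM in the other 8 tumors. Without control 1, 0 of the 20 tested passed that p in the mean of both shRNAs, and the log2 fold change was −0.15 for *Col17a1*, 0.31 for *Krt5* and −0.65 for *Krt15*. The value of *Krt5* averages 2.31 with sh2 and −1.69 with sh3. At that p, *Krt5* was then higher with sh2, against 2.80% of all genes. *Col17a1* and *Krt5* were lower in sh3 against sh2, against 5.77% of all genes, and none passed an FDR of 0.05 (edgeR). The median of the list was then −0.04 with sh2 and −0.05 with sh3. Control 1 is the tumor with the cornifying skin transcripts and the highest *Trp63*, and the part of skin epidermis in its levels of basal genes was not tested. In sh3 1, the tumor with the lowest *Trp63*, 6 of the 20 tested genes had their highest level and 5 their lowest. *Jag1*, a Notch ligand bound by p63, was among the 6, at 265 CPM against 39.6 to 61.1 CPM elsewhere. The whole list summed to 4123.5 CPM in sh3 1, against 1619.5 to 3308.5 CPM in the other tumors.

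Of 15 KLF4 and hillock genes, 14 were in the table, *Tmprss11b* among them, and 10 were tested. The median log2 fold change was −0.33 with sh2 and −0.57 with sh3. By sign, 5 were lower and 5 higher with sh2, and 6 were lower and 4 higher with sh3. Among all genes, 48.2% and 45.1% were lower. At an unadjusted p under 0.05 in edgeR, 4 were lower and 0 higher with each construct. Of all genes, 3.52% passed that p with sh2 and 6.63% with sh3, and none of the 10 passed an FDR of 0.05. With both constructs the 4 included *Tmprss11b*, the target of the shRNAs, together with *Krt16* and *Sprr1a*, a cornified envelope gene. The remaining gene was *Lypd3* with sh2 and *Ecm1* with sh3. *Sprr1a* was at 5.62 CPM in control 1, the tumor with cornifying skin transcripts, and at most at 0.95 CPM elsewhere. *Krt16*, an inducible squamous keratin, was at 46.4, 17.9 and 6.30 CPM in the controls, at 4.30, 1.88 and 2.503 CPM in the sh2 tumors and at 1.34, 4.32 and 5.13 CPM in the sh3 tumors. Control 1 was highest, and every shRNA tumor was below every control tumor for *Krt16*. Without control 1, *Krt16* and *Tmprss11b* were the genes of the list past an unadjusted p of 0.05 with each construct, against 2.80% and 3.78% of all genes, and the log2 fold change of *Krt16* was −2.06 with sh2 and −1.76 with sh3 (FDR = 0.999 and 1.00, edgeR). In contrast *Krt13* was near 0 throughout and *Krt4* ran from 0.09 to 25.2 CPM with the highest level in sh3 2. *Klf4* itself spanned 37.1 to 73.4 CPM.

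All 13 grainyhead target genes were tested. With sh2, 11 were higher than control and 2 lower, with a median log2 fold change of 0.30, and with sh3, 9 were higher and 4 lower, with a median of 0.12, beside 48.2% and 45.1% of all genes lower. Of the 13, 5 were highest in sh2 2 and 5 in sh2 3, the tumors with raised simple epithelial genes, while sh2 1 was lowest for 4. Without sh2 2, 12 were higher and 1 lower with sh2, with a median of 0.15. None passed an FDR of 0.05, and at an unadjusted p under 0.05 there were 0 with sh2 and 1, *Tgm1*, lower with sh3 (edgeR), against 3.52% and 6.63% of all genes. *Epcam*, an epithelial adhesion gene, was at 646 to 796 CPM in the controls, at 690, 1028 and 1152 CPM in the sh2 tumors and at 973, 691 and 779 CPM in the sh3 tumors. The junction gene *Cldn7* was highest in sh2 2 at 267 CPM, against 136 to 200.02 CPM elsewhere. Of the 14 lung genes, 7 were tested, with 0 higher and 1 lower in the mean of both shRNAs at an unadjusted p under 0.05, against 4.09% of all genes, the club cell gene *Scgb1a1*, whose highest level of 4.26 CPM came from control 3.

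Promoter sequence was read for the genes on either side of the *Klf4* and *Tmprss11b* relation and for *Grhl3*, the factor with the widest spread. A RefSeq promoter table (GRCm38.p6) held entries for 5 of the 10 factors. The 250 bases before the annotated start are printed 5′ to 3′ on the strand of the gene, at chr5:86676299-86676548, minus strand, for *Tmprss11b*, at chr4:55532476-55532725, minus strand, for *Klf4*, and at chr4:135573633-135573882, minus strand, for *Grhl3*. Capitals mark matches on either strand to the CACCC box (CACCC) and the GC box (CCGCCC) of Krüppel-like factors, a SOX motif (CATTGT), the AP-2 motif (GCCNNNGGC) and the grainyhead motif (AACNGGTT).
Tmprss11b: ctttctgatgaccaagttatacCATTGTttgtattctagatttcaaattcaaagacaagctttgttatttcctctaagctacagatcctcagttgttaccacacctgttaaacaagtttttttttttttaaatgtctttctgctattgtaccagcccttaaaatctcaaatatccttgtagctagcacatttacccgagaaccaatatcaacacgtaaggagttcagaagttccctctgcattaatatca
Klf4: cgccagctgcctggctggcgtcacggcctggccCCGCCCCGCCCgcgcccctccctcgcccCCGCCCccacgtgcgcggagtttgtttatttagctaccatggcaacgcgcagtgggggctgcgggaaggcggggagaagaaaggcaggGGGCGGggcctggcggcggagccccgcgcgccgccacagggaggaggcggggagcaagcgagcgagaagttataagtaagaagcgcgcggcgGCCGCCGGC
Grhl3: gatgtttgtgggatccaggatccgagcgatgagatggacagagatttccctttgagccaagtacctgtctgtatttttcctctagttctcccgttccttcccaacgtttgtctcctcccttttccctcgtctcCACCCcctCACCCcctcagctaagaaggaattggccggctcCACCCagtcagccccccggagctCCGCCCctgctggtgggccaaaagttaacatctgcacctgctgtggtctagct
The *Tmprss11b* window held 1 SOX match and 0 matches to the other 4 motifs, and 34.4% of its bases were G or C, against a median of 52.4% over all windows. The *Klf4* window held 4 GC boxes, 2 of which share 1 base, and 1 AP-2 match. The *Grhl3* window held 3 CACCC boxes and 1 GC box. Over all 32851 windows of this length, 52.0% held a CACCC box, 32.7% a GC box, 10.7% the SOX motif, 13.7% the AP-2 motif and 1.8% the grainyhead motif. A match is a description of the letters and not a binding site, and nothing follows for a factor from letters that are not in this window.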

How the data were processed

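Total RNA of 9 subcutaneous KLN205 tumors was sequenced from stranded poly-A libraries. Groups and replicate numbers came from the sample labels. Per the submitters' processing notes, reads were aligned to mm10 with STAR 2.5.3a and counted with featureCounts. The authors deposited raw counts for 19481 genes, which were tested here, and a TPM column per tumor, which was used to compare levels between genes. The TPM were checked to be the counts scaled by a constant per gene and a constant per tumor. The constant per gene was taken to be its length and was not compared with annotated lengths. The deposited normalized signal (CPM) was used only to check the counts, and 10 columns of the authors' own comparisons (fold changes, p-values, adjusted p-values) were not used. The gene annotation, the strand setting and the handling of reads with several matches are not given in the sources used here. Without the strand setting, reads of overlapping antisense genes cannot be assigned with certainty.

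The counts of all 9 tumors were fitted in R 4.3.3 with edgeR 4.0.16 (filterByExpr, 14725 genes kept, TMM, robust quasi-likelihood, 1 coefficient per group), with Benjamini-Hochberg adjustment over all genes tested and an FDR of 0.05 as the threshold. Single factors were also compared by exact permutation of log2 CPM values (prior count 2). The smallest two-sided p was 0.1 for 3 tumors against 3 and 0.0119 for 6 against 3. A relation of *Tfap2a* with *Tfap2c* was planned and dropped, since *Tfap2c* was not tested, which left 8. Figures were drawn in Python 3.11.15 with matplotlib 3.10.9. The fits were tested on simulated data. The alternatives were DESeq2's size factors, the Wald test of DESeq2 1.42.0, edgeR's likelihood ratio test, no filter, a minimum of 10 counts per tumor, fits to the compared groups alone, a replicate block, a prior count of 0.5 and each tumor left out. Leaving out control 1 and sh2 2 together, and counting list genes and factor pairs without single tumors, were chosen after seeing the data.

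The factors, gene lists and relations were chosen with earlier results of these data known. The genes named were the 10 factors, *Tmprss11b*, the relation partners, up to 3 genes most alike to each factor, up to 4 genes of lowest unadjusted p per list and any gene past the threshold, of which there were none. Other genes named (among them *Krt8*, *Krt18*, *Krt13*, *Krt4*, *Grhl1*, *Ehf*, *Sox9*, *Elf3*, *Isx*, *Jag1*, *Sftpb*, *Sftpc*, *Sftpd*, *Aqp5*, *Hopx*, *Ecm1*, *Dsc3*, *Pkp1* and *Perp*) were picked from the lists after their values were seen, and 1 gene that the rule names is not reported here. Floors of 3 counts cover counting error only. Replicates differed by more than sampling noise, so none was merged. Of the table's symbols, 18299 matched a RefSeq gene table (GRCm38.p6) directly and 1086 as synonyms, and coordinates are from that table.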

Additional observations from a re-analysis of the deposited data

How the results depend on the processing

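With every alternative that gave a value, no factor passed an FDR of 0.05. DESeq2's Wald test called 2 genes with sh2, 41 with sh3, 9 in the mean of both shRNAs and 46 in sh3 against sh2, and edgeR's likelihood ratio test called 8 with sh3, 8 in the mean of both and 14 in sh3 against sh2, where the quasi-likelihood test called 0. The cause was not tested. Of 275 log2 fold changes of the tested factors and *Tmprss11b* under alternatives other than a left-out tumor, 264 kept direction and side, 9 reversed and 2, both of *Tmprss11b*, passed. Without control 1 and sh2 2 together, reversals were to 0.18 (*Trp63*), 0.23 (*Pitx1*) and 0.049 (*Tfap2a*) with sh2, 0.0085 (*Trp63*) with sh3, 0.10 (*Trp63*) and 0.00281 (*Sox2*) in the mean of both, and −0.17 (*Trp63*) and 0.17 (*Klf4*) in sh3 against sh2. The replicate numbers did not pair the tumors: the 9 pairs with the same number correlated at a mean of −0.0992 after removal of group means, with 0 over 0.1, and with the replicate block 0 genes passed in any comparison and 1 direction turned, *Klf4* in sh3 against sh2, to 0.026. With 1 tumor left out in turn, ranges crossed 0 with sh2 for *Klf4* (−0.31 to 0.13), *Pitx1* (−0.20 to 0.18, turned by control 1) and *Tfap2a* (−0.24 to 0.014, control 1). With sh3 they did for *Trp63* (−2.05 to 0.0086, control 1), *Sox2* (−0.049 to 0.31, sh3 2), *Klf4* (−0.33 to 0.091), *Pitx1* (−0.016 to 0.37, control 3), *Tfap2a* (−0.0059 to 0.41, sh3 1) and *Grhl2* (−0.082 to 0.24). In the mean of both they did for *Klf4* (−0.31 to 0.11, control 2), *Pitx1* (−0.11 to 0.27) and *Tfap2a* (−0.071 to 0.18), and in sh3 against sh2 for *Trp63* (−1.07 to 0.76), *Klf4* (−0.22 to 0.18) and *Grhl3* (−1.11 to 0.11, sh3 1). Of the 8 relations, 3 passed with all tumors, between 1 and 3 with a tumor left out and 0 without the 2 farthest tumors, where fewer tumors remain. Without the 2 farthest tumors, r reversed to −0.723 for *Trp63* with *Krt5*, −0.313 for *Trp63* with *Klf5* and −0.244 for *Klf4* with *Tmprss11b*, whose ranges with 1 tumor left out were −0.114 to 0.637, −0.184 to 0.248 and −0.243 to 0.437. By level per length, 8 of 10 factors kept their rank with the median, 8 with any control tumor left out and 4 when the shRNA tumors replaced the control. In that last order *Klf5* stayed first and *Grhl2* moved ahead of *Klf4*. The count filter of 10 left *Trp63*, *Grhl3* and *Tmprss11b* without a value. Low counts limit *Tfap2c* and *Nkx2-1*.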
